A study of Mus musculus with 3 samples.

Results

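CDK inhibitors, D cyclins, their kinases and the pocket proteins they act on were measured as 10 genes of 55536 in the RNA of mouse splenic T cells. The 10 were chosen by name: the CIP/KIP inhibitors Cdkn1b and Cdkn1a, the INK4 inhibitors Cdkn2d and Cdkn2c, the D cyclins Ccnd3 and Ccnd2, the kinases Cdk6 and Cdk4, and the pocket proteins Rbl2 and Rb1. All 10 were present in the gene table of each library. The samples were 3 libraries of total RNA, labelled as primary T cells of the spleen (CD3 in the sample description) from virgin female B6CASTF1/J mice 66 days old, whose dams were C57BL/6 and whose sires were CAST/EiJ. No genotype change or treatment is given, all 3 fall into 1 group, and each was made from 300 ng of RNA. The labels place the 3 biosamples under 1 donor record, so the SDs and p-values cover the variation among these samples alone, and that variation may be technical.

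D cyclins bind CDK4 and CDK6 and switch them on when a cell receives growth signals. The active kinase phosphorylates the pocket proteins RB1, p130 (from Rbl2) and p107 (from Rbl1), which otherwise hold E2F factors in check and keep the genes of DNA replication silent. INK4 proteins bind the kinases themselves, while CIP/KIP proteins bind cyclin-kinase complexes and block cyclin E and cyclin A with CDK2. In resting lymphocytes p27 (from Cdkn1b) and p130 are known as the inhibitors that mark quiescence, and antigen receptor signals bring D cyclins up and p27 down.

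The bases before the annotated starts of Ccnd3, Cdk4 and Cdkn1b are shown from RefSeq on build GRCm38.p6, all on the plus strand and outside the exons of the gene they precede. Ccnd3 is shown because its RNA was assigned to entries at an upstream and a downstream start. Cdk4 is shown because its window holds a repeated motif, and Cdkn1b because it was the most abundant inhibitor. Capitals mark CACGTG, an E-box of the kind that MYC and MAX bind. The windows are chr17:47504801-47505050 and chr17:47593217-47593435 for the upstream and downstream starts of Ccnd3, chr10:127063285-127063533 for Cdk4 and chr6:134920151-134920400 for Cdkn1b.
Ccnd3 upstream start: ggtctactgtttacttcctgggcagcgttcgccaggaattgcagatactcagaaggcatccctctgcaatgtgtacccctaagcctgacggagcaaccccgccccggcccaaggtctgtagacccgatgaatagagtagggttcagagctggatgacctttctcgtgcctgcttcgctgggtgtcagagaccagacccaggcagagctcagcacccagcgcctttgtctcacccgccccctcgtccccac
Ccnd3 downstream start: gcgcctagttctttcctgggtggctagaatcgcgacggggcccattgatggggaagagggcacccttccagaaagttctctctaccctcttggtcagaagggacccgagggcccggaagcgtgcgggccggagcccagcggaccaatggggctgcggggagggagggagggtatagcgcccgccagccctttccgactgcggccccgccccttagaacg
Cdk4: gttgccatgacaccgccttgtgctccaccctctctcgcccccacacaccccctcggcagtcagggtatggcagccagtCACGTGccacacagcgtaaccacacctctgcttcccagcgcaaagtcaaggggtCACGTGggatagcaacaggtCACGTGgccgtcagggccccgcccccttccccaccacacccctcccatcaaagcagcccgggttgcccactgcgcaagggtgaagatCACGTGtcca
Cdkn1b: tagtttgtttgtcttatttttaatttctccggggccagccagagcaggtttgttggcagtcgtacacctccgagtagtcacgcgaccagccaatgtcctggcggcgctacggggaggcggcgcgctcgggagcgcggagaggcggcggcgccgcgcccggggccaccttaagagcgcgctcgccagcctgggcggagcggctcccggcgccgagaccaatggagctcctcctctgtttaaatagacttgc

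RefSeq promoters were found for 8 of the 10 genes, 11 in all, each read over the 250 bases before its start and on both strands. Some of these windows overlap annotated exons of the same gene. The overlap was largest for the upstream start of Cdkn2c (250 bases), Cdkn2d (198), Cdk6 (57) and the downstream start of Ccnd3 (31). CACGTG, which is its own reverse complement, was found in 2 of the 11, once before Cdk6 and 4 times before Cdk4. Of 32817 RefSeq mouse promoters of that length, 6.02% held it at least once and 0.0213% at least 4 times. The E2F words TTTCCCGC, TTTGGCGC, TTTCGCGC and TTTGCCGC were in 0 of the 11 windows and in 1.86% of all promoters. GGGCGG, the core of the GC box that SP1 binds, was in 7 of the 11 and in 32.7% of all promoters. The 7 include the upstream Cdkn2c window and the Cdkn2d window, which are mostly exon. None of these words contains another, and each match or lack of one describes only the letters of these windows.

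Levels are given in TPM (transcript abundance scaled for length and depth), over 16.875, 14.9887 and 16.1971 M estimated counts in replicates 1, 2 and 3. The 9 T-cell markers summed to 2939, 2897 and 2693 TPM in those libraries, against 10.4, 13.8 and 8.27 TPM for 5 B-cell markers, 29.2, 23.8 and 26.6 TPM for 5 markers of monocytes and macrophages, and 54.2, 96.9 and 42.6 TPM for 6 erythroid genes. The 10 markers of cycling cells summed to 36.9, 24.6 and 17.5 TPM. Of the 10 members, 9 reached 1 TPM in every library and 8 reached 10 TPM. The median of the 10 was 25.8 TPM, against 13.5 TPM for the 9851 protein-coding genes that reached 1 TPM in every library. In order of the mean, the members were Ccnd2, Ccnd3, Cdkn1b, Cdk4, Rbl2, Cdkn2d, Cdk6, Rb1, Cdkn2c and Cdkn1a. Neighbours in this order whose ranges over the libraries overlapped were Ccnd2 with Ccnd3, Cdkn2d with Cdk6, and Cdk6 with Rb1. The other neighbours did not overlap.

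**Figure D1:**
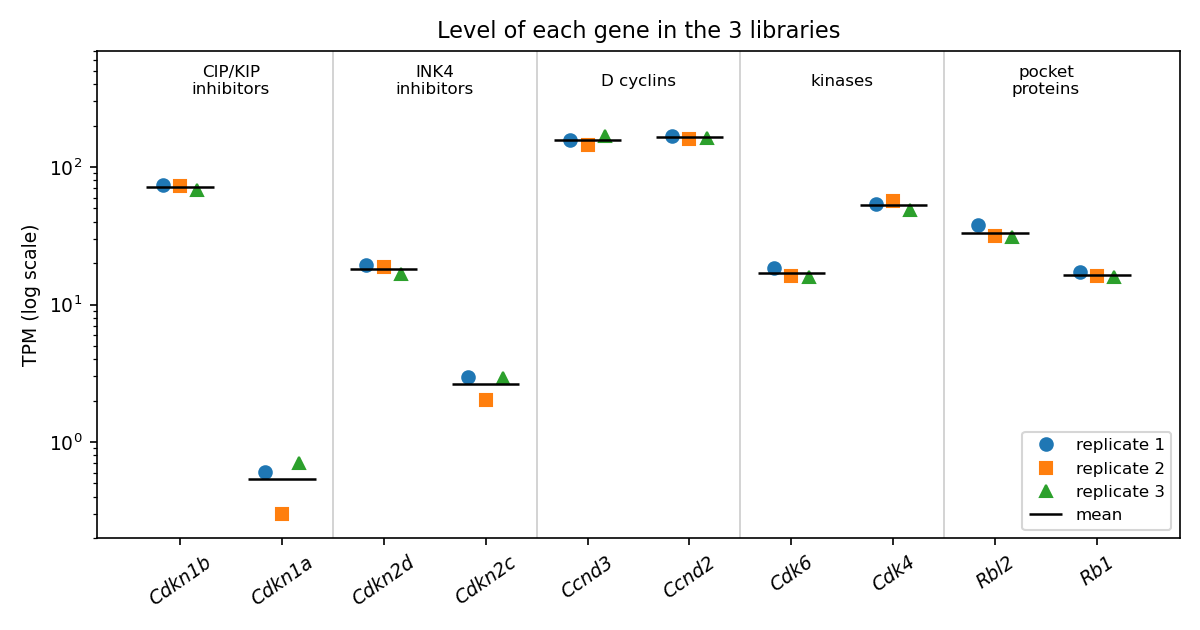
TPM of the 10 genes on a log axis, grouped by role, with 1 point per library (replicates 1, 2 and 3) and a bar at the mean. The D cyclins lie at the top with means of 157 and 164 TPM, and Cdkn1a is lowest at 0.537 TPM.

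Of the CIP/KIP inhibitors, these T cells held Cdkn1b RNA at a high level and Cdkn1a RNA at the edge of detection. Cdkn1b (ENSMUSG00000003031.14, mm10 chromosome 6, 134920401 to 134925513, plus strand) encodes p27, which holds cyclin-CDK2 complexes inactive. It stood at 73.85, 72.68 and 67.99 TPM in replicates 1, 2 and 3, a mean of 71.5 ± 3.10 TPM (SD, n = 3), above 92.4% of the detected protein-coding genes. Cdkn1a (ENSMUSG00000023067.14, chromosome 17, 29090976 to 29100727, plus strand) encodes p21, the inhibitor that p53 induces after DNA damage. It stood at 0.61, 0.30 and 0.70 TPM from 17, 9 and 18 counts. All 3 libraries lay below 1 TPM, and the lowest, replicate 2, also had the fewest counts. In bulk RNA a low level in every cell and a higher level in a few cells cannot be told apart. With TPM rescaled to protein-coding genes alone, Cdkn1a stood at 1.52 ± 0.61 and Cdkn1b at 202 ± 4.23. Per library, Cdkn1b exceeded Cdkn1a by a log2 ratio of 7.15 ± 0.69, or 142-fold, in 3 of 3 libraries. An exact sign-flip permutation over libraries, two-sided, returned p = 0.25, the smallest that 3 libraries allow, and 0.292 after Benjamini-Hochberg adjustment over the 7 ratios computed. With so few Cdkn1a counts the size of the ratio depended on the scale, at 5.57 ± 0.24 with a pseudocount of 1 TPM, 6.48 ± 0.41 on posterior mean TPM and 8.04 ± 0.51 on TMM-scaled CPM, counts scaled for depth but not divided by length.

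Both main entries of Cdkn1b are complete coding transcripts with the same start at position 134920401. The 2393-base Cdkn1b-201 held 48.8 ± 0.96% of the gene's TPM and the 4552-base Cdkn1b-202 held 42.1 ± 1.17%. By estimated counts, which grow with length, Cdkn1b-202 led, with 2343, 2166 and 2121 counts in replicates 1, 2 and 3, against 1399, 1231 and 1323 for Cdkn1b-201. The few Cdkn1a counts were read from complete coding entries only, and no entry led in all 3 libraries. Entries at the upstream RefSeq start of Cdkn1a had 0 TPM in each library, and those at the downstream start held 71.7 ± 24.9% of its TPM.

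Of the INK4 inhibitors, Cdkn2d lay near the middle of the expressed genes and Cdkn2c near the bottom. Cdkn2d (ENSMUSG00000096472.2, chromosome 9, 21288410 to 21291407, minus strand) encodes p19-INK4d. It stood at 19.31, 18.64 and 16.69 TPM, a mean of 18.2 ± 1.36 TPM, and 60.1% of detected protein-coding genes lay below it. The second quantification, a separate deposited estimate from the same reads, put it at 28.4 ± 2.45 TPM. Cdkn2c (ENSMUSG00000028551.14, chromosome 4, 109660876 to 109667189, minus strand) encodes p18-INK4c, which restrains the division of activated T cells in mice. It stood at 2.96, 2.02 and 2.91 TPM from 67, 40 and 61 counts, with replicate 2 the lowest. The Cdkn2d values did not overlap those of Cdkn2c, with a log2 ratio of 2.81 ± 0.35, or 7.02-fold, in 3 of 3 libraries (exact sign-flip permutation p = 0.25, adjusted 0.292), and 3.44 ± 0.65 in the second quantification. Summed over the members of each family alone, CIP/KIP inhibitors stood at 72.0 ± 3.00 TPM and INK4 inhibitors at 20.8 ± 1.34 TPM. The further genes of both families, each under 1 TPM in at least 1 library, were not in these sums. The log2 ratio of the sums was 1.79 ± 0.04, or 3.46-fold, with the same exact permutation p of 0.25. It was 3.10 ± 0.04 on TMM-scaled CPM and 1.43 ± 0.03 in the second quantification.

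Cdkn2c has an upstream and a downstream annotated start, and more of its RNA was assigned to the downstream entry. The downstream entry, Cdkn2c-201, took 76.4, 79.2 and 83.5% of the gene's TPM in replicates 1, 2 and 3, and the upstream entry, Cdkn2c-202, took 23.6, 20.8 and 16.5%. These shares rest on 35.1 and 20.9 counts per library on average. In the second quantification the downstream share was 72.5 ± 10.7% and the upstream share 27.5 ± 10.7%. For Cdkn2d the division between entries differed between libraries, and Cdkn2d-203 held 49.1, 78.1 and 100% of its TPM in replicates 1, 2 and 3. The second quantification gave it 60.1 ± 6.55%.

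By TPM of whole genes the D cyclins were the most abundant of the 10 genes, and their values overlapped. The second quantification, coding entries alone and TMM-scaled CPM put Ccnd3 below Ccnd2. Ccnd3 (ENSMUSG00000034165.16, chromosome 17, 47505051 to 47599691, plus strand) encodes cyclin D3, which developing thymocytes need in order to expand. It stood at 158.36, 143.91 and 169.08 TPM, a mean of 157 ± 12.6 TPM. Ccnd2 (ENSMUSG00000000184.12, chromosome 6, 127125162 to 127152193, minus strand) encodes cyclin D2, the D cyclin that mitogens and cytokines induce in lymphocytes. It stood at 169.39, 160.19 and 162.20 TPM, a mean of 164 ± 4.84 TPM. Both lay above 97.3% of detected protein-coding genes. Ccnd3 was the higher in replicate 3 and Ccnd2 in replicates 1 and 2, and the log2 ratio of Ccnd3 over Ccnd2 was -0.06 ± 0.11, smaller than its SD (exact sign-flip permutation p = 0.5, adjusted 0.5). The ratio was -0.39 ± 0.09 in the second quantification, with Ccnd3 at 168 ± 17.4 TPM and Ccnd2 at 219 ± 9.88 TPM. Over protein-coding entries it was -0.65 ± 0.07, and over complete coding entries -0.43 ± 0.06, from 66.1 ± 1.13 TPM for Ccnd3 and 89.0 ± 4.27 TPM for Ccnd2. Counted over complete entries, Ccnd3 also lay below Cdkn1b, which stayed at 71.5 ± 3.10 TPM. On TMM-scaled CPM the ratio was -1.26 ± 0.06. On posterior mean TPM (-0.07 ± 0.11) and with a pseudocount of 1 TPM (-0.06 ± 0.11) it stayed smaller than its SD.

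The RNA of Ccnd3 was assigned to entries whose annotated starts lie far apart on the chromosome. Starts themselves were not measured. Entries at the upstream start took 69.1, 71.0 and 69.7% of its TPM in replicates 1, 2 and 3, against 30.9, 28.6 and 30.0% at the downstream start. In estimated counts the means per library were 2416 and 1726. Among complete coding entries alone, the downstream start held the larger share, 58.1 ± 5.90%, against 41.3 ± 5.83% at the upstream start. The second quantification gave 56.2 ± 2.89% and 42.5 ± 4.04% for the same entries. Bysl, on the opposite strand at 5.54 TPM, shares 361 exon bases with Ccnd3. The leading single entry, Ccnd3-205, belongs to the downstream start and held 24.4 ± 0.67% of the gene's TPM. Retained-intron entries, most of which lie at the upstream start, held 47.0 ± 1.63% of Ccnd3 TPM. The part of unspliced RNA in the shares of the starts was not tested. The upstream and downstream windows printed above share GGGCGG or its complement and hold no CACGTG.

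**Figure D2:**
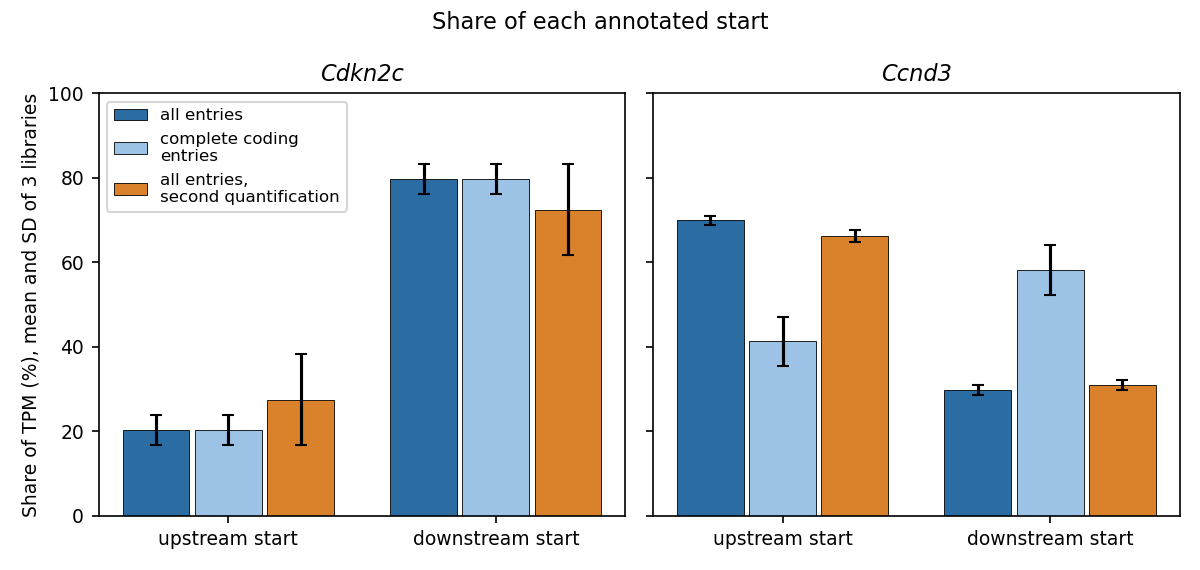
Share of the TPM of Cdkn2c and Ccnd3 (percent, mean and SD of 3 libraries) at the upstream and downstream start, over all entries, over complete coding entries and over all entries in the second quantification. For Ccnd3 the upstream start holds 69.9% over all entries and 41.3% over complete coding entries.

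The kinases were lower than the D cyclins, and their order depended on which transcripts were counted. Cdk6 (ENSMUSG00000040274.11, chromosome 5, 3341485 to 3531008, plus strand) stood at 18.49, 16.25 and 15.73 TPM, a mean of 16.8 ± 1.47 TPM. Cdk4 (ENSMUSG00000006728.12, chromosome 10, 127063534 to 127067920, plus strand) stood at 53.54, 56.26 and 48.33 TPM, a mean of 52.7 ± 4.03 TPM. On TPM of whole genes Cdk6 was 3.13-fold lower than Cdk4 in 3 of 3 libraries, a log2 ratio of -1.65 ± 0.13 (exact sign-flip permutation p = 0.25, adjusted 0.292). Over protein-coding entries only, complete or not, the ratio turned to 0.91 ± 0.02, with Cdk6 at 16.3 ± 1.30 TPM and Cdk4 at 8.67 ± 0.822 TPM. Over complete coding entries it was 1.75 ± 1.19, from 8.26 ± 0.987 TPM for Cdk6 and 2.80 ± 1.50 TPM for Cdk4. Counts not divided by length gave 0.81 ± 0.12, from 1258 counts for Cdk6 and 712 for Cdk4 on average. Summed, the D cyclins reached 321 ± 14.8 TPM against 69.5 ± 4.75 TPM for the kinases, a log2 ratio of 2.21 ± 0.15, or 4.62-fold (exact permutation p = 0.25). This order held in 11 of 11 other settings, some of which could not turn it. The size did not hold: the log2 ratio was 2.83 ± 0.11 on TMM-scaled CPM, 3.10 ± 0.16 over protein-coding entries and 3.81 ± 0.11 over complete coding entries.

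Little of the Cdk4 RNA was assigned to complete coding entries. Complete coding entries, meaning protein-coding entries with no end marked as missing in the annotation, took 2.02, 6.20 and 7.95% of Cdk4 TPM in replicates 1, 2 and 3. Of 9081 detected protein-coding genes with at least 2 entries, 1.57% had a lower share, and the median share was 62.3%. By counts, complete coding entries held 10.7 ± 5.32% of Cdk4. They are Cdk4-201, of 2053 bases, and Cdk4-202, of 714 bases, and the marking does not show that each encodes the whole kinase. Retained-intron entries took 53.8, 58.6 and 60.5% of Cdk4 TPM, and the single nonsense-mediated decay entry took 25.9 ± 2.74%, against 12.5 ± 2.45% in the second quantification. The leading entry by TPM in every library was Cdk4-209, a retained-intron entry of 468 bases and 2 exons, with 100.6, 113 and 105 counts and 33.4 ± 2.96% of the TPM. By counts it was exceeded in every library by Cdk4-207, a retained-intron entry of 2038 bases with 244, 144 and 194 counts, and by the decay entry Cdk4-208 with 212, 189 and 155 counts. The second quantification also put Cdk4-209 first by TPM, at 34.7%, with 13.5 ± 4.14% in complete coding entries and 54.8 ± 7.70% in retained-intron entries. Tspan31, a tetraspanin gene on the opposite strand at 4.25 TPM, shares 641 exon bases with the complete entry Cdk4-201, 18 with Cdk4-207 and 0 with Cdk4-209. Whether the deposited counts used strand is not given in the sources used here, so reads of that shared stretch cannot be told apart. Total RNA includes unspliced RNA, and its part in these shares was not tested.

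Cdk6 differed from Cdk4 in this respect. Its complete coding entries held 49.0 ± 1.52% of TPM and 94.1 ± 0.14% of counts, and its retained-intron entry held 3.27 ± 0.85% of TPM. Cdk6-202, of 11525 bases, led in every library with 1266, 930 and 1060 counts in replicates 1, 2 and 3. Incomplete coding entries held 47.7 ± 2.26% of Cdk6 TPM but 4.42 ± 0.49% of its counts.

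**Figure D3:**
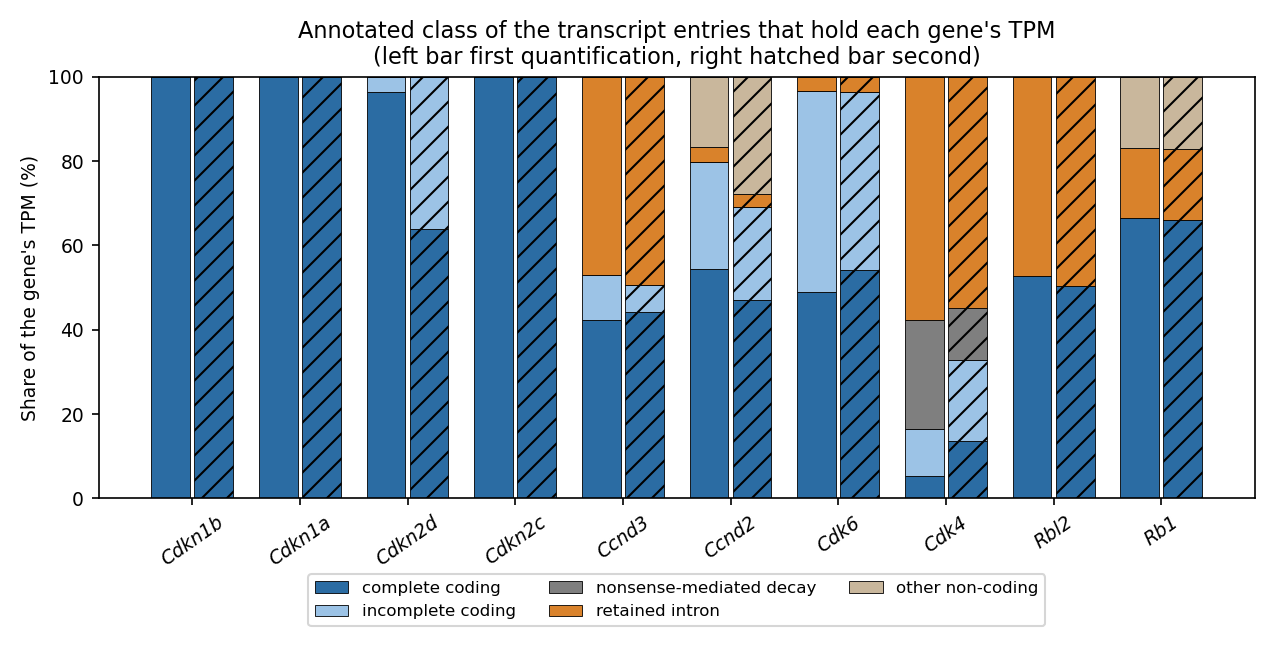
Share of each gene's TPM (percent, mean of 3 libraries) in complete coding, incomplete coding, nonsense-mediated decay, retained-intron and other non-coding entries, with the first quantification on the left and the second, hatched, on the right of each pair. Cdk4 has the smallest share of complete coding entries of the 10 genes in both, 5.39% and 13.5%.

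**Figure D4:**
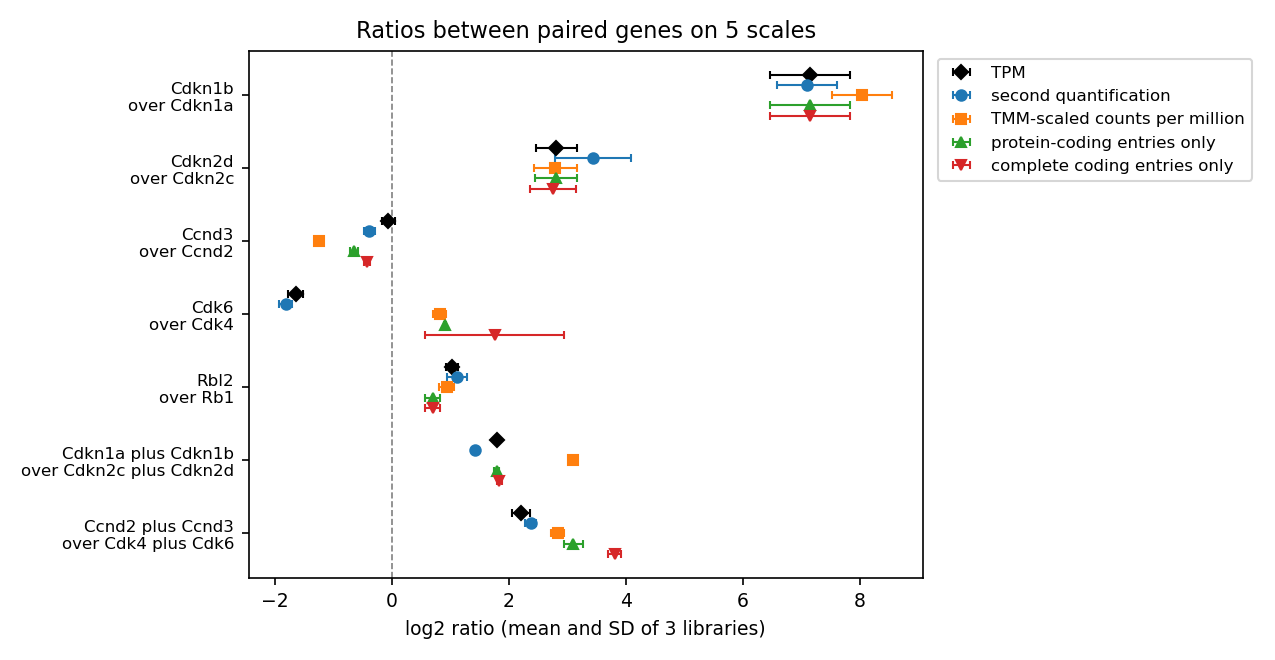
log2 ratios between paired genes (mean and SD of 3 libraries) on 5 scales, with 0 marked by a dashed line. Cdk6 over Cdk4 lies at -1.65 on TPM and at 0.81, 0.91 and 1.75 on CPM, protein-coding entries and complete coding entries.

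Of the pocket protein genes, Rbl2 had more RNA than Rb1, by a margin that was smaller over complete coding entries. Rbl2 (ENSMUSG00000031666.15, chromosome 8, 91070057 to 91123844, plus strand) encodes p130, which joins E2F4 and the MuvB core in the repressor complex DREAM. It stood at 37.93, 31.37 and 30.86 TPM, a mean of 33.4 ± 3.94 TPM, with replicate 1 the highest. Rb1 (ENSMUSG00000022105.6, chromosome 14, 73183673 to 73325822, minus strand), the retinoblastoma gene, stood at 17.10, 16.09 and 15.75 TPM, a mean of 16.3 ± 0.702 TPM. The groups of values did not overlap, and Rbl2 exceeded Rb1 by a log2 ratio of 1.03 ± 0.11, or 2.04-fold, in 3 of 3 libraries (exact sign-flip permutation p = 0.25, adjusted 0.292). Over complete coding entries the log2 ratio was 0.69 ± 0.13, from 17.6 ± 2.37 TPM for Rbl2 and 10.9 ± 0.738 TPM for Rb1. Complete coding entries held 52.8 ± 1.96% of Rbl2 TPM and 66.6 ± 3.13% of Rb1 TPM, and 85.5 ± 0.60% and 96.0 ± 1.12% of their counts. Retained-intron entries held 47.2 ± 1.96% of Rbl2 TPM, against a median of 25.7% over 6154 detected protein-coding genes with such an entry. Opposite-strand exons overlap Rbl2 by 693 bases of Aktip (5.98 TPM) and 892 of Gm45464 (0.60 TPM), and Rb1 by 488 bases of Rcbtb2 (16.2 TPM) and 408 of Lpar6 (5.52 TPM), neighbours chosen by position.

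Between the libraries, none of the members varied more than genes of like abundance beyond the threshold. The test set each gene's spread over the 3 libraries against the trend of all genes in edgeR, with Benjamini-Hochberg adjustment over 13280 genes. It called 0 of the 9 members tested, and 75 genes or 0.565% of all. Cdkn1a had too few counts to enter. At an unadjusted p under 0.05 edgeR listed 755 genes, among them 2 members. These were Rbl2 (edgeR adjusted p = 0.785) and Ccnd3 (edgeR adjusted p = 0.849). Rbl2 was highest in replicate 1, where cycling markers were also highest, and Ccnd3 was highest in replicate 3, where they were lowest. The other replicates did not follow the markers. Ccnd3 was lowest in replicate 2 (143.91 TPM), where the markers lay between. Rbl2 was alike in replicates 2 and 3 (31.37 and 30.86 TPM). The part of cycling cells in these levels was not tested. DESeq2's marking of outlying dispersion included 0 members among 125 genes. Of the cycling markers, Mki67 was called in edgeR (adjusted p = 0.00171), at 6.27, 4.57 and 2.74 TPM in replicates 1, 2 and 3, and Top2a (adjusted p = 0.0119), at 11.74, 7.50 and 5.28 TPM. Of the erythroid genes, Hba-a2 was called (adjusted p = 0.0321), with reads that Hba-a1, a near-identical copy, may share.

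Around the 10 genes, other inhibitors lay under the detection threshold, set on TPM of all RNA. RNA of every gene listed for the MuvB core of the quiescence repressor was detected. The 4 further inhibitors and Ccnd1 (cyclin D1) each lay under 1 TPM in at least 1 library, so that 0 of 5 counted as detected. Ccnd1 was the highest at 0.827 ± 0.182 TPM. Protein-coding genes held 36.04, 35.52 and 34.43% of TPM in replicates 1, 2 and 3. The threshold is therefore stricter than 1 TPM over protein-coding genes alone. Ccnd1 had 34, 31 and 41 counts and Cdkn1c had 11, 17 and 13, and both entered the spread test. For Ccnd1 and Cdkn1c, missing the threshold does not show that RNA was absent. Cdkn2a, which encodes p16 and p19ARF, had 0 counts in every library, which allows up to 3 counts per library, for counting error only. Of 10 E2F and DP genes 6 were detected, with E2f4, the partner of p130, highest at 34.4 ± 2.05 TPM and E2f7 lowest at 0.553 ± 0.326 TPM. All 8 genes of the MuvB list were detected, from Rbbp4, its histone-binding subunit, at 52.1 ± 2.87 TPM to Mybl2, the B-Myb factor that replaces p130 in cycling cells, at 1.54 ± 0.542 TPM. Rbl1, which encodes p107, stood at 11.2 ± 0.720 TPM, below Rb1 and Rbl2 in every library.

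Of 8 genes that act late in G1, 7 were detected, and Cdk7, the kinase that activates other CDKs, was highest at 14.4 ± 0.996 TPM. Ccne2 (cyclin E2) was lowest at 1.46, 1.08 and 0.54 TPM in replicates 1, 2 and 3 and was the gene not detected in every library. Cdk2, the target of p27, stood at 11.4 ± 0.290 TPM. All 10 matched genes for the turnover of p27 and cyclin D were detected. Rnf123, a subunit of the KPC ligase that degrades p27 in G1, was highest at 69.3 ± 6.91 TPM, and Skp2, which degrades p27 in S phase, was lowest at 1.24 ± 0.118 TPM. Of 11 transcription factors upstream of these genes all were detected, with Klf2, which maintains T-cell quiescence, highest at 354 ± 23.5 TPM and Bcl6, a repressor, lowest at 4.06 ± 0.514 TPM. Myc stood at 42.6 ± 1.97 TPM and Foxo1, which drives Cdkn1b, at 44.1 ± 2.33 TPM. Of the 52 genes of these 6 lists, 48 were tested for spread between libraries, 0 were called and 6 had an unadjusted p under 0.05. Of all 13280 genes tested, 75 (0.565%) were called and 755 had an unadjusted p under 0.05. Tspan31, Rbl1, Cdk2, Myc and Foxo1 were chosen after their values were seen.

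**Figure D5:**
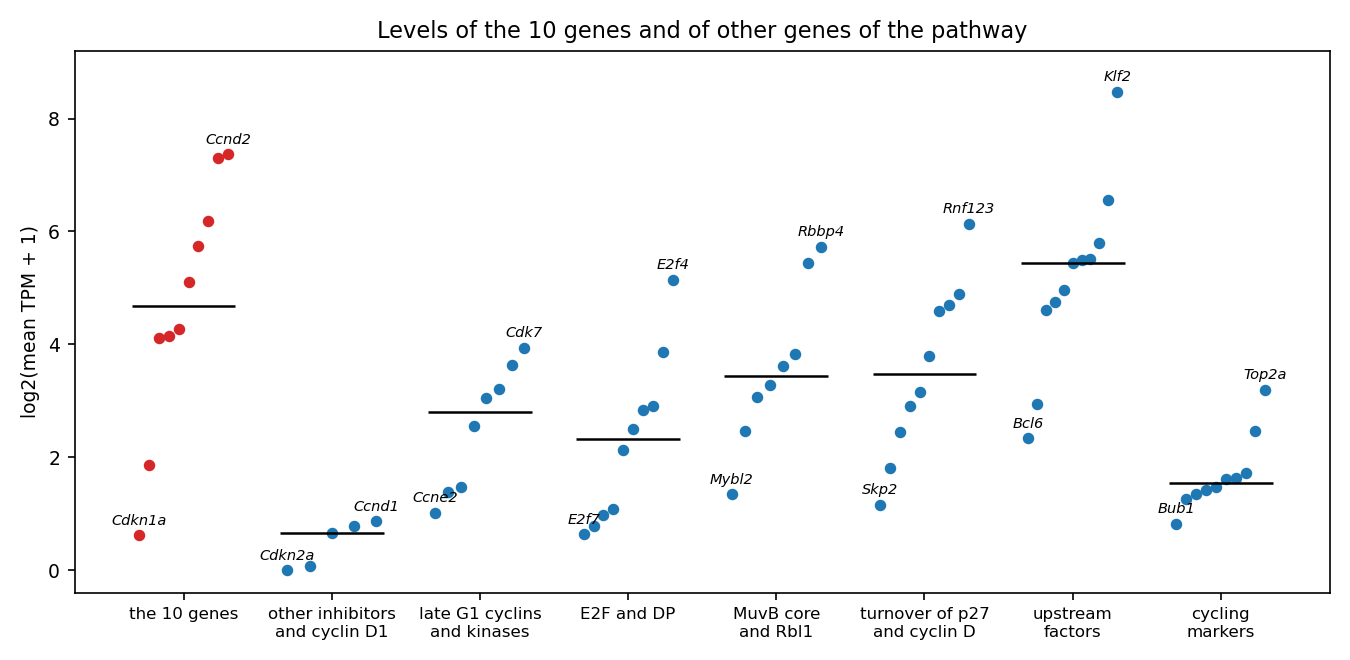
Mean level of each gene as log2(mean TPM + 1), for the 10 genes (red) and 7 other lists (blue), with the highest and lowest gene of each list named and a bar at the median. The 10 genes range from Cdkn1a at 0.537 TPM to Ccnd2 at 164 TPM.

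Genes whose values over the 3 libraries lay closest to the leading member of each role were named by the smallest distance of log2(TPM + 1) among 9842 protein-coding genes. Srcap, a chromatin remodeller, lay closest to Cdkn1b at 71.1 ± 3.61 TPM. Dnajc11 lay closest to Cdkn2d at 18.4 ± 1.41 TPM, and the kinase gene Stk38 to Ccnd2 at 162 ± 5.93 TPM. Atp5o, a subunit of ATP synthase, lay closest to Cdk4 at 53.3 ± 3.66 TPM, and Hadhb, an enzyme of fatty acid oxidation, to Rbl2 at 34.1 ± 4.36 TPM. With 3 libraries of 1 group, such closeness is a match of levels.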

How the data were processed

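Total RNA of 3 libraries was measured, with replicates numbered as labelled. Estimated counts, TPM and FPKM per gene and per transcript were deposited by the authors, who made them from transcriptome alignments to mm10 with GENCODE M21, per the deposited README. A further deposited transcript table, called the second quantification, gives the authors' estimated counts and TPM from reads matched to an index of that annotation, here summed per gene. Deposited posterior SDs of the counts and posterior means are in the same tables. Per the labels, a directional kit and ERCC spike-ins were used. For aligner, quantifier and strand setting: not given in the sources used here. Alleles were not separated. The gene tables hold 16.875, 14.9887 and 16.1971 M estimated counts in replicates 1, 2 and 3. Spike-ins and 26248 entries named by a number, with at most 8.39 counts per library, were left out. Pairs of libraries differed beyond sampling noise (chi-square per gene 4.20 to 5.24), so none was treated as a copy of another. That check does not tell separate animals from technical replicates.

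Members, gene lists and tests were chosen with earlier results of these data known. With 1 group there is no contrast. Levels and transcript shares are descriptions, ratios were tested by exact two-sided sign-flip permutation over libraries, and spread between libraries was tested in edgeR 4.0.16 (R 4.3.3) on estimated counts rounded to whole numbers, with filterByExpr, TMM and a robust intercept-only fit, adjusted by Benjamini-Hochberg at 0.05. On simulated counts the test recovered 86% of 2-fold and 100% of 4-fold changes, with 4 false calls among 190. Those counts were drawn at the trend of spread that the test assumes, so they cannot show how it behaves on these libraries. Detection means at least 1 TPM in all 3 libraries, starts were matched within 500 bases, and 1 listed symbol of 97 (Skp1) had no match. Named genes are the 10 members, the highest and lowest gene of each pathway list, genes called in the spread test, genes at 0 in all libraries, and the closest gene to the leading member of each role. DESeq2 1.42.0 served for alternatives, and Python 3.11.15 with pandas 2.3.3, numpy 2.4.6 and matplotlib 3.10.9 for the rest. Coordinates are 1-based.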

Additional observations from a re-analysis of the deposited data

How the results depend on the processing

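Of 7 ratios, 6 kept their direction in 11 of 11 alternatives each, though not always their size. Some of the 11 could not turn a ratio. FPKM and TPM over protein-coding genes rescale both genes alike, and a pseudocount keeps the sign in each library. Leaving out 1 replicate cannot turn a ratio with 1 sign in all 3 libraries. Ccnd3 over Ccnd2, 1 of the 6, had a main ratio of -0.06 ± 0.11, smaller than its SD, so its direction was not settled. Cdk6 over Cdk4 kept its direction in 8 of 11, among them the second quantification (-1.82 ± 0.11) and settings that could not turn it. It turned on TMM-scaled CPM (0.81 ± 0.12), over protein-coding entries only (0.91 ± 0.02) and over complete coding entries only (1.75 ± 1.19, an alternative chosen after seeing the data). The first is not divided by length and the others leave out the retained-intron and decay entries of Cdk4. No ratio could pass a threshold with 3 libraries. The level of a single member moved by at least its SD in 2 alternatives for Cdkn2c and in up to 6 for Rb1. TMM-scaled CPM and the rescaling to protein-coding genes were among them for every member, and for Cdkn2c they were the only 2. Both change the scale, so such a move does not show that a level is unstable. The 75 genes that varied between libraries became 303 with no filter, 28 with a non-robust fit, 125 by DESeq2's marking, and 35 to 85 with 1 replicate left out (43 without replicate 1, 35 without replicate 3), and the cause was not tested. Members called stayed at 0 in every setting run, and their lowest adjusted p was 0.395, for Rbl2 with no filter. The leading entry was the same for 8 of 10 genes by estimated counts (Cdkn1b and Cdk4 changed), 9 over protein-coding entries (Cdk4 changed) and 9 in the second quantification, the exception being Cdkn1a, whose 9 to 18 counts limit any reading of its entries. No paired analysis between groups was possible because the 3 libraries form 1 group, and the ratios pair genes within each library.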
